A study of Caenorhabditis elegans with 4 samples.

Results

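Chromosome III of Caenorhabditis elegans carried 360 of the 2705 binding regions (peaks) in the series-wide peak list of a MIX-1 chromatin immunoprecipitation (ChIP-seq) experiment. They are every peak of that list placed on chromosome III, taken by chromosome alone and by no measured value. Of the remaining peaks, 1259 lay on the other autosomes (I, II, IV and V), 1076 on X and the rest on the mitochondrial genome, which was not used. The material was wild-type N2 embryos of mixed stage, from a population with both sexes, with no mutation, transgene or treatment in any group. The 2 ChIP libraries (replicate 1 and replicate 2) were made from formaldehyde-fixed embryo extract with an affinity-purified polyclonal rabbit antibody raised against MIX-1. The series also has 2 input libraries, for which no regions were analysed here. Nothing in the labels says whether the replicates were separate cultures, so their differences may be technical.

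MIX-1 is an SMC-family ATPase subunit of condensin, the ring-shaped complex that loops and compacts DNA. Worms have mitotic and meiotic condensins, which act on all chromosomes, and a further condensin within the dosage compensation complex, which acts on the hermaphrodite X. All of them contain MIX-1, so a MIX-1 peak on an autosome does not show which complex was bound. Worm chromosomes have no single localized centromere, and each autosome has a gene-dense centre flanked by arms that are richer in repeats and in recombination.

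Each region has a first and a last base and a score from the authors' peak caller, whose scale is not stated. Scores therefore rank regions within a list. The series-wide list held 360 regions on III, the list of replicate 1 held 270 and that of replicate 2 held 75. Over all chromosomes the replicate lists held 2310 and 706 regions. Read counts were not used here, so the sequencing depth is unknown. The 95% intervals and exact p-values given for counts and shares cover counting error only, taking regions as independent. Positions are WormBase WS220, 1-based, and no genome of that build was used here, so neither the bases nor the genes under the peaks are given. The span of III was taken as 13783731 bp, its last region end over the 3 lists.

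Along chromosome III the peaks were unevenly placed, with a single crowded megabase near the middle. The 13 whole 1-Mb bins held 24.5 ± 13.5 series-wide peaks (SD over bins), with a median of 24. The 3 fullest were the bin from 7 to 8 Mb with 64 peaks, the bin from 6 to 7 Mb with 30 and the bin from 3 to 4 Mb with 29. The 3 emptiest were the bin from 2 to 3 Mb with 10 peaks and the bins from 9 to 10 Mb and from 10 to 11 Mb with 14 each. The fullest bin thus held more than the sum of the next pair, and 17.8% of all peaks of the chromosome. Whole bins of the other autosomes held 18.4 ± 6.95 peaks (67 bins, range 7 to 42), so the bin from 7 to 8 Mb lay above all of them and the other whole bins of chromosome III lay within their range. On X the range was 44 to 94 over 17 bins. The same bin was the fullest on III in replicate 1, with 59 of 270 regions, but in replicate 2 it held 5 of 75. There the fullest bins of III were those from 1 to 2 Mb and from 3 to 4 Mb, with 10 regions each.

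**Figure D1:**
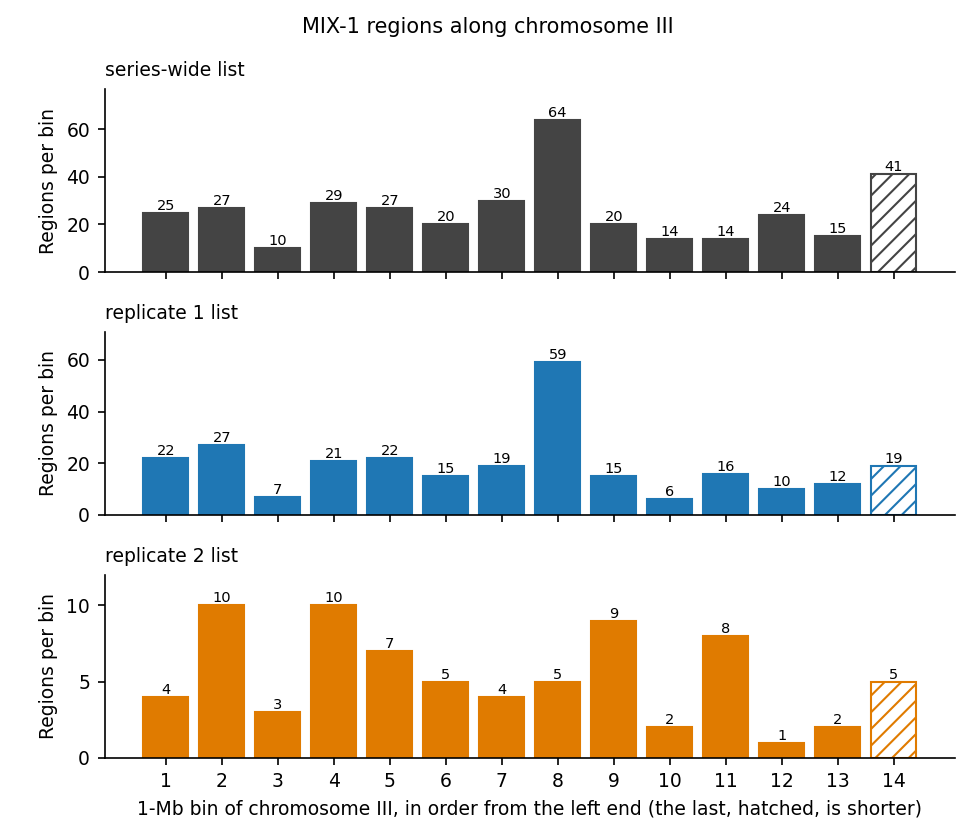
Number of MIX-1 regions in each 1-Mb bin of chromosome III, in order from the left end, in the series-wide list (top), replicate 1 (middle) and replicate 2 (bottom), with the count above each bar; the last, hatched bin is shorter. The eighth bar reaches 64 and 59 regions in the upper plots and 5 in the lowest.

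The crowding came from a single cluster. Clusters were taken as runs of peaks with at most 10 kb between neighbours. The largest, III:7405728-7451777, held 49 series-wide peaks in 46.0 kb, which is 13.6% of the peaks of the chromosome in 0.334% of its span. Its peaks stood a median of 306 bp apart and their median width was 314 bp. Their scores were low, with a median of 3.87 and 41 of the 49 below the chromosome's median of 6.385. The highest of the 8 above it was III:7444340-7448098, a peak of 3759 bp with a score of 28.16, and the next scored 13.23. Replicate 1 had 43 regions in the same stretch, which covered 43.9% of it. Their median score in that list was 103.83, against 119.1 for all its regions of III and 108.4 for those of the other autosomes. The regions under the wide peak scored 3100 and 2331.46, and the next scored 630.01. Replicate 2 had 3 regions there, with scores of 437.34, 327.35 and 99.66, and the first pair lay under the same wide peak. Of the 49 series-wide peaks, 38 overlapped a region of replicate 1, 3 overlapped replicate 2 and 11 overlapped neither. Of the 311 peaks of III outside this cluster, 56.3% overlapped replicate 1, 22.8% replicate 2 and 40.8% neither. The cluster thus had a larger share in replicate 1 and a smaller share in replicate 2 than the rest of III. Few low-scoring peaks overlapped replicate 2 on any chromosome. In the lowest and the next quartile of series-wide score the shares were 3.88% and 3.88% on III, 7.98% and 12.2% on the other autosomes, and 3.33% and 5.16% on X.

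**Figure D2:**
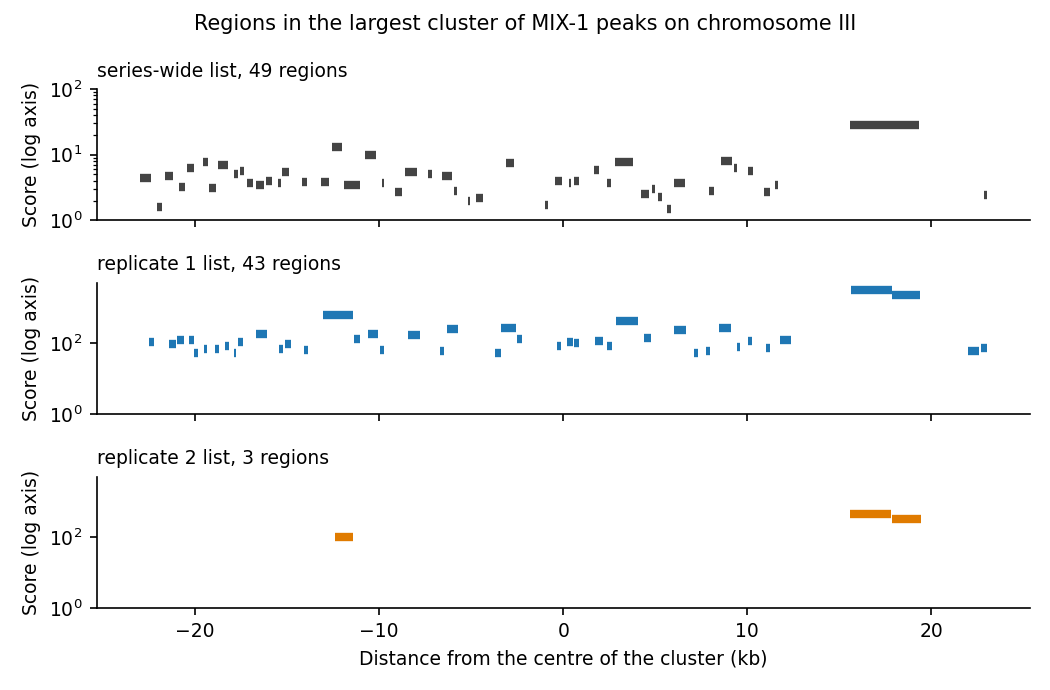
Regions within the largest cluster of chromosome III, by distance in kb from the centre of the cluster, with each region drawn as a line as long as the region at the height of its score (log axis), in the series-wide list (49 regions), replicate 1 (43) and replicate 2 (3). Many short lines fill the upper plots, while the lowest plot has only the pair under the wide peak and 1 more.

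The next clusters of III differed in which list supported them. III:13062957-13084515 held 16 peaks in 21.6 kb near the right end, with a median score of 3.535, and 14 of them overlapped neither replicate. III:6567549-6576705 held 12 peaks in 9.16 kb, all of which overlapped replicate 1 and none replicate 2. Of these, 10 lay under a single replicate 1 region of 6362 bp, III:6566913-6573274, whose score of 1812.77 was the ninth highest on III in that list, while the 10 peaks scored at most 9.47 in the series-wide list. III:3854884-3867676 held 6 peaks in 12.8 kb with a median score of 9.165, of which 4 overlapped replicate 1 and 1 overlapped replicate 2. III:1245782-1261628 also held 6 peaks, in 15.8 kb, and 5 of these overlapped a region of each replicate. Of these 5 clusters, those with the most peaks on III, it was the only one with as many peaks overlapping replicate 2 as replicate 1.

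Clusters of 3 or more peaks held 157 of the 360 peaks of III (43.6%), against 26.1% of the peaks of the other autosomes and 49.3% of X peaks. The 3 clusters of III with 10 or more peaks held 77 peaks, the 2 such clusters of the other autosomes held 26 and the 4 on X held 49. Outside III the most peaks in a cluster were 14, on X and on I. The median gap between neighbouring peaks was 14 kb on III, 30.4 kb on the other autosomes and 9.95 kb on X. Peaks of a cluster are not independent, so these shares are given without a test. The surplus of III in clustered peaks over the other autosomes, 17.5 percentage points, was 3.69 without clusters of 10 or more on any chromosome, and in replicate 2 the difference was -13.7 points, with 6.67% of III regions and 20.4% of those of the other autosomes in such clusters.

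Chromosome III was the densest autosome in the series-wide list. It had 26.12 peaks per Mb of span (exact Poisson 95% interval 23.49 to 28.96), against 18.34 on the other autosomes (17.34 to 19.38) and 60.73 on X (57.15 to 64.47). The ratio to the other autosomes was 1.42 (exact conditional interval 1.26 to 1.60, two-sided exact binomial p = 1.13e-08). Taken singly, III exceeded I by 1.23 times, II by 1.57, IV by 1.45 and V by 1.48, with p-values adjusted over the 5 single chromosomes (Benjamini-Hochberg, exact binomial tests) of 0.00718, 1.06e-07, 2.23e-06 and 2.75e-07. Its ratio to X was 0.43 (0.381 to 0.485, exact binomial test, adjusted p = 4.15e-48). These tests take peaks as independent counts, which peaks of a cluster are not, so their p-values and intervals understate the uncertainty. Per 1000 protein-coding genes III had 136 peaks, the other autosomes 86.2 and X 394.

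Neither replicate list alone gave an excess over the other autosomes together past the threshold of 0.05. The ratio was 1.14 in replicate 1 (0.995 to 1.30, exact p = 0.053) and 1.11 in replicate 2 (0.849 to 1.42, exact p = 0.429). Against I, II, IV and V singly, the replicate 1 ratios were 1.07, 1.28, 0.988 and 1.26 (exact binomial tests, adjusted p = 0.519, 0.0108, 0.903 and 0.0108). Those of replicate 2 were 0.943, 1.15, 1.29 and 1.08, none past the threshold. Without the largest cluster of III the series-wide ratio to the other autosomes together was 1.23 (1.08 to 1.39, exact p = 0.0013), from 22.6 peaks per Mb on III, and that of replicate 1 was 0.958 (0.828 to 1.11, exact p = 0.592). Chromosome I alone had 21.23 series-wide peaks per Mb (18.97 to 23.69). Without clusters of 10 or more on any chromosome the series-wide ratio was 1.14 (1.0 to 1.3, exact p = 0.0458). With neighbours within 10 kb merged the series-wide ratio was 1.14 (0.971 to 1.34, exact p = 0.104). The deficit of III against X held in all of these settings, between 0.329 and 0.461. Peaks covered 0.944% of III and 0.712% of the other autosomes in the series-wide list (130.1 kb at a mean width of 361.4 bp and 489.1 kb at 388.5 bp). Those shares were 1.00% and 0.984% in replicate 1, and 0.429% and 0.414% in replicate 2.

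**Figure D3:**
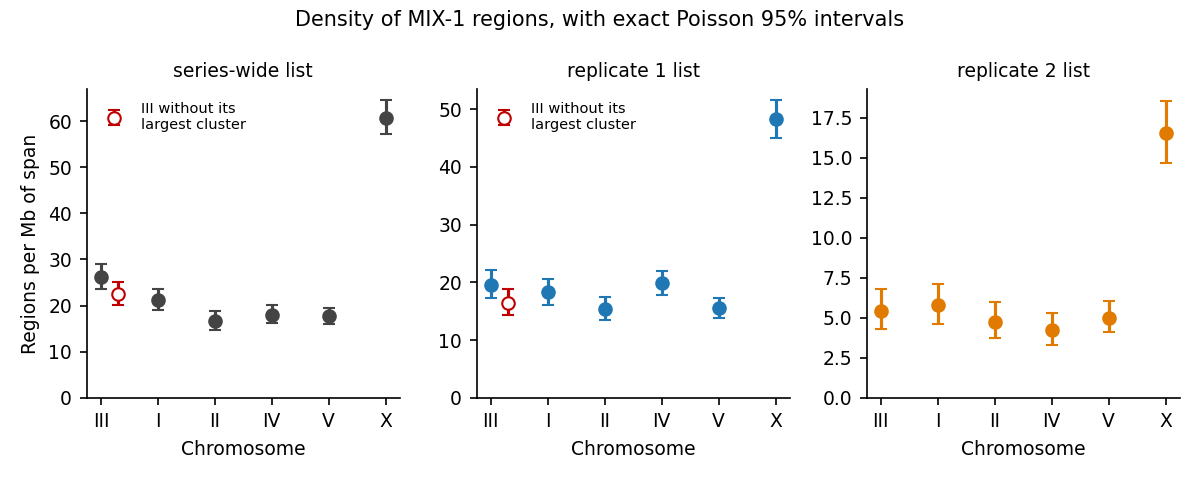
Regions per Mb of span on chromosome III, the other autosomes singly and X, in the series-wide list, replicate 1 and replicate 2; bars are exact Poisson 95% intervals, and the open red point is III without its largest cluster. Chromosome III lies above the other autosomes at 26.12 per Mb in the series-wide list, and among them in the replicate lists.

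The share of peaks in the centre of III also turned on the largest cluster. For this, each chromosome was cut into a left, a central and a right segment of 33.3% of its span. The central segment of III held 144 of its 360 peaks, or 40.0% (exact 95% interval 34.9 to 45.3, two-sided exact binomial p = 0.00852 against its share of the span). Without the largest cluster the central segment held 30.5% (25.5 to 36, exact p = 0.307), on the other side of an even share. Replicate 1 gave 42.2% (exact p = 0.00237) with the cluster and 31.3% (exact p = 0.527) without it, and replicate 2 gave 32.0% (exact p = 0.903). The difference in central share between III and the other autosomes was 4.5 percentage points in the series-wide list (Newcombe 95% interval -1.12 to 10.3), which includes 0. In replicate 1 it was 12.1 points (5.72 to 18.5), and without the largest cluster the shares of that list were 31.3% on III and 30.2% on the other autosomes. Against X the difference was 10.9 points in the series-wide list (5.25 to 16.7) and 2.31 points in replicate 2 (-8.62 to 14.6). Without the largest cluster the series-wide shares were 30.5% on III and 29.1% on X.

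The outer segments held like numbers in the series-wide list and unlike numbers in both replicates. Series-wide peaks numbered 110 in the left segment and 106 in the right. Replicate 1 had 93 regions in the left segment and 63 in the right (two-sided exact binomial p = 0.0199), and replicate 2 had 33 and 18 (exact p = 0.0489). The left segment's share of the outer pair was 59.6% on III and 45.0% on the other autosomes in replicate 1, a difference of 14.6 points (Newcombe 95% interval 6.04 to 22.7). In replicate 2 it was 64.7% on III and 45.2% on the other autosomes, a difference of 19.5 points (4.27 to 32.8), and in the series-wide list 50.9% and 44.6%, a difference of 6.34 points (-1.12 to 13.8). The outer segments were compared only once their values were known, in 3 lists, and the p-values are not adjusted for that.

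By series-wide score the strongest peaks of III were under 1 kb wide, mostly isolated and found in both replicates. The highest score, 157.42, belonged to III:4568473-4568875, a peak of 403 bp whose regions scored 1784.89 in replicate 1 and 518.6 in replicate 2. III:10460985-10461435 followed with a series-wide score of 134.79, and its regions scored 2165.06 in replicate 1 and 587.73 in replicate 2. III:8043702-8044087 had a series-wide score of 113.17, and its regions scored 923.83 in replicate 1 and 804.39 in replicate 2. The other members of the first 5 were III:13292945-13293414 with a series-wide score of 114.54 and III:3664198-3664544 with 105.86.

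The 15 highest-scoring peaks of III were 296 to 470 bp wide, with a median of 385 bp against 245.5 bp for all peaks of the chromosome. Of the 15, 10 had no other peak within 10 kb, against 135 of all 360 peaks of III (37.5%). A pair of the 15, III:13292945-13293414 and III:13296049-13296497, lay beside each other near the right end. By position, 7 of the 15 lay in the left segment, 4 in the central segment and 4 in the right segment. All 15 overlapped a region of replicate 1, with scores from 209.07 to 2165.06, and 14 overlapped replicate 2, with scores from 88.84 to 804.39. The exception was III:1824499-1824834, with a series-wide score of 55.96 and 653.56 in replicate 1. Strong peaks were often found in both replicates on the other chromosomes too. In the highest quartile of series-wide score the shares found in both were 66.7% on III, 59.3% on the other autosomes and 66.9% on X. After that exception, the next highest peaks of III missing from replicate 2 were III:3175038-3175291 with a series-wide score of 43.12, III:3460076-3460372 with 28.05, III:3857033-3857287 with 26.07 and III:3770565-3770715 with 24.55. Each of these 5 overlapped replicate 1 and lay in the left segment. The highest peak found in neither replicate was III:3456287-3456514, with a series-wide score of 20.42, followed by III:2597070-2597354 with 15.77, III:3248692-3248934 with 15.21, III:6661704-6661922 with 14.66 and III:4962944-4963169 with 13.6.

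The 5 highest-scoring regions of III in each replicate list were wide, while regions under 1 kb that match some of the 15 peaks above followed further down, from the eighth place in replicate 1 and the sixth in replicate 2. In replicate 1, 5 regions of III stood at 3100, a value shared by many regions of that list whose origin is not stated, and they were 2268 to 5504 bp wide. None of the 15 peaks above reached that score. III:5353051-5358554 was 5504 bp wide in replicate 1, and its counterpart in replicate 2, with a score of 910.88, began 4 bp before it and ended on the same base. III:3334308-3337065 scored 3100 in replicate 1 and its counterpart scored 491.36 in replicate 2, with edges 6 and 4 bp apart. III:1300148-1303154 scored 3100 in replicate 1 and its counterpart 1317.7 in replicate 2, with edges 5 and 6 bp apart. III:2496951-2501787 scored 3100 in replicate 1 and its counterpart 1216.38 in replicate 2, with edges 11 and 112 bp apart. Apart from the right end of the last, the ends of these 4 regions differed by at most 11 bp between libraries. The remaining region at 3100, III:7444358-7446625, is part of the wide peak in the largest cluster, and 2 regions of replicate 2 overlapped it. Of the other replicate 1 regions of 1 kb or more that met a single region of replicate 2, III:7446627-7448157 had edges 3 and 3 bp apart. The rest matched less closely, with edges 19 and 752 bp apart for III:7594588-7596496, 643 and 18 bp for III:7415675-7417355, and 317 and 1024 bp for III:1017613-1019664.

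Their series-wide scores were moderate. The series-wide list had 12 peaks of 1 kb or more on III, 1024 to 4974 bp wide, with scores of 7.67 to 34.8. The 5 widest were III:2077584-2082557, III:2497020-2501768, III:7444340-7448098, III:5353052-5356537 and III:1017364-1020628, and they stood 54th, 20th, 32nd, 37th and 60th by score among the 360. Of the 12, 6 lay in the left segment, 6 in the central segment and none in the right, and 9 overlapped regions of both replicates. The widest of the 12 on III, III:2077584-2082557 at 4974 bp, had no region in replicate 1. Its counterpart in replicate 2 scored 858.47, the fifth highest on III in that list. The opposite held for III:6566913-6573274 in replicate 1, the widest region of III in that list, which no region of replicate 2 overlapped. III:1017364-1020628 had the highest score of III in replicate 2, 1633.31, while its 3 regions in replicate 1 scored at most 411.8.

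**Figure D4:**
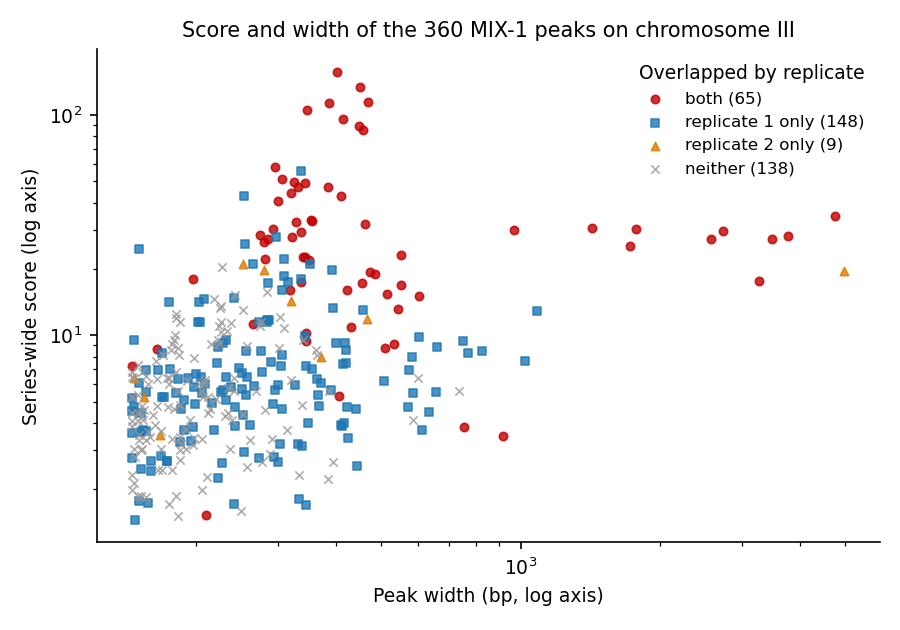
Series-wide score against width, both on log axes, for the 360 peaks of chromosome III, marked by the replicate lists that overlap each peak (65 both, 148 replicate 1 only, 9 replicate 2 only, 138 neither). The highest scores belong to peaks of 296 to 470 bp, the peaks of 1 kb or more lie between 7.67 and 34.8, and peaks found in neither replicate reach 20.42.

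Wide regions were less frequent on III than on the other autosomes in replicate 1, with 17 of 270 regions (6.30%) at 1 kb or more against 11.0%, a difference of -4.72 percentage points (Newcombe 95% interval -7.74 to -0.797). The difference was -2.54 points in the series-wide list (3.33% on III and 5.88% on the other autosomes, -4.56 to 0.127) and -8.41 points in replicate 2 (14.7% and 23.1%, -16.3 to 2.17), and both of these intervals include 0. Of the other autosomes IV came nearest to III, at 4.43% series-wide, 8.36% in replicate 1 and 14.9% in replicate 2. From X, III differed by -0.849 points series-wide (-2.82 to 1.77), -0.37 in replicate 1 (-3.36 to 3.48) and 3.75 in replicate 2 (-3.74 to 13.9). In the series-wide list and replicate 1, median widths on III were close to those of the other autosomes and below those of X. In replicate 2 the median of III was below that of both. The median series-wide width was 245.5 bp on III (95% order-statistic interval 229 to 266), 246 bp on the other autosomes (238 to 254) and 283 bp on X (270 to 293). In replicate 1 these medians were 343, 354 and 409 bp, and in replicate 2 they were 409, 449 and 429 bp. The replicate 2 intervals overlap, at 359 to 472 bp on III, 413 to 490 on the other autosomes and 390 to 454 on X.

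The median series-wide score was 6.385 on III (5.79 to 6.96), 7.17 on the other autosomes (6.74 to 7.54) and 7.725 on X (7.42 to 8.38). Outside the largest cluster, with its many low scores, the median of III was 6.85 (6.26 to 8.17). In the replicate lists the order of III and the other autosomes was the opposite, at 119.1 on III (103.8 to 130.1) and 108.4 on the other autosomes (103.02 to 115.8) in replicate 1, and at 119.7 (94.05 to 140.8) and 117.3 (104.4 to 128.03) in replicate 2. These intervals overlap, and the medians were not tested against each other.

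A larger share of the peaks of III than of the other autosomes or X was found in neither replicate list, though not at every score. Of the 360 peaks, 213 (59.2%) overlapped a region of replicate 1, against 64.2% of all nuclear peaks, and 74 (20.6%) overlapped replicate 2, against 25.6% of all nuclear peaks. Regions of both replicates overlapped 65 peaks of III (18.1%), against 22.3% of all nuclear peaks, and 138 (38.3%) overlapped neither, against 32.5%. The share found in neither replicate exceeded that of the other autosomes, 31.5%, by 6.88 percentage points (Newcombe 95% interval 1.35 to 12.6) and that of X, 31.7%, by 6.64 points (1.00 to 12.4). From the lowest to the highest quartile of series-wide score, the difference from the other autosomes was 13.4, -4.41, 12.4 and 0.0 points. That from X was -5.36, -5.47, 19.9 and 3.73 points. For peaks found in both, the difference from the other autosomes, -4.5 points, had an interval that includes 0 (-8.85 to 0.342), and that from X was -5.36 points (-9.84 to -0.42). Peaks of III found in both replicates had a median series-wide score of 27.39 (21.92 to 30.3), those found in replicate 1 alone 5.865 (5.37 to 6.5) and those found in neither 4.815 (4.38 to 5.61). Of the 36 highest-scoring peaks, 33 were found in both and none in neither, and of the 36 lowest-scoring, 1 and 20.

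Peaks found in neither replicate were most frequent in the right segment of III. There 57 of 106 peaks (53.8%) overlapped neither replicate, against 139 of 450 (30.9%) in the right segments of the other autosomes, a difference of 22.9 points (12.4 to 32.9), and against 29.2% in the right segment of X, a difference of 24.6 points (13.9 to 34.7). In the left segment the shares were 30.0% on III and 29.0% on the other autosomes, a difference of 0.994 points (-8.18 to 11.1), and in the central segment 33.3% and 34.0%, a difference of -0.671 points (-9.15 to 8.42). Overlap with replicate 1 was also lower, at 41.5% of right-segment peaks on III and 66.0% on the other autosomes, a difference of -24.5 points (-34.4 to -14). Overlap with replicate 2 was lower in the central segment, with 23 of 144 peaks (16%) on III, 27.7% on the other autosomes and 26.2% on X. The difference there was -11.8 points from the other autosomes (-18.4 to -3.86) and -10.2 points from X (-17.5 to -1.99), while in the right segment it was -7.41 points from the other autosomes (-14.9 to 1.79). These segments were not tested against each other. Overlap with both replicates differed from the other autosomes by -9.01 points in the right segment (13.2% and 22.2%, -15.6 to -0.473). In the central segment that difference was -6.18 points (-12.7 to 1.57). The central segment includes the cluster of 49 peaks, of which 3 overlapped replicate 2, and the cluster of 12, of which none did. Together these clusters gave only 3 of the 23 central peaks that overlapped replicate 2. The share without them was not computed, so the difference is not shown for the rest of the central segment. Over all of III outside the largest cluster, replicate 2 overlap differed from the other autosomes by -4.1 points (-9.09 to 1.42). Within III the right segment exceeded the left by 23.8 points in peaks found in neither replicate (10.6 to 35.8).

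The cluster of 16 peaks near the right end holds 14 of these 57. Without clusters of 10 or more peaks, the right-segment share found in neither replicate was 47.8% on III and 31.9% on the other autosomes, a difference of 15.9 points (4.91 to 26.9). Among peaks below the median score of the series-wide list the difference was 29.4 points (69.7% of 66 peaks on III and 40.3% of 236 on the other autosomes, 15.9 to 40.9), and among those above the median it was 6.94 points (27.5% of 40 and 20.6% of 214, -5.89 to 23.0). Whether these differences differ between weak and strong peaks was not tested. Support by segment was looked at for 4 kinds of overlap, in 3 segments, against the other autosomes and X, with earlier values known, and the intervals are not adjusted for that number.

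**Figure D5:**
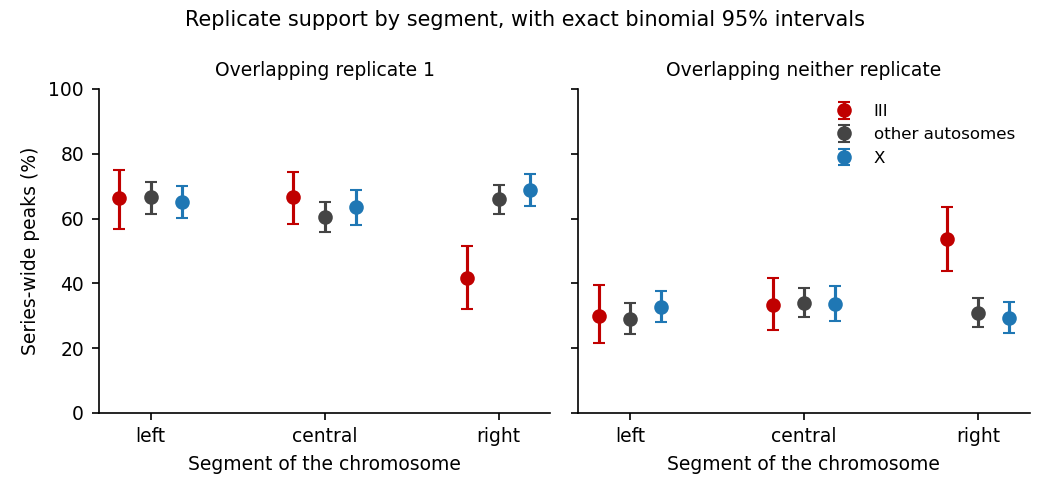
Share of series-wide peaks that overlap replicate 1 (left) and neither replicate (right), by segment (left, central and right 33.3% of the span), for III, the other autosomes and X, with exact binomial 95% intervals. In the right segment III stands apart, at 41.5% and 53.8%, while the left and central segments are close to those of the other chromosomes.

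In the opposite direction, most replicate regions of III were in the series-wide list. Of the 75 regions of replicate 2, 72 (96.0%, exact 95% interval 88.8 to 99.2) overlapped a series-wide peak and 66 (88.0%, 78.4 to 94.4) overlapped replicate 1. The shares meeting a series-wide peak were 91.1% on the other autosomes and 98.3% on X, those meeting replicate 1 were 81.4% and 89.4%, and the intervals of all 4 differences include 0. Of the 270 regions of replicate 1, 201 (74.4%, 68.8 to 79.5) overlapped a series-wide peak, against 65.6% on the other autosomes and 84.2% on X. The difference was 8.85 points from the other autosomes (2.73 to 14.4) and -9.77 points from X (-15.7 to -4.28). Of the 270, 68 (25.2%) overlapped replicate 2, against 24.2% on the other autosomes (difference 0.948 points, -4.48 to 6.93) and 30.5% on X (difference -5.34 points, -11.1 to 0.922). Of the replicate 1 regions on III that the series-wide list lacked, the highest-scoring lay at the very left end, III:1-215, with a score of 356.31. Replicate 2 also had a region there, III:1-207, with a score of 61.66, although the first series-wide peak of III began at 185920. Across the 66 replicate 2 regions of III that overlapped replicate 1, the scores of the lists had a Spearman rho of 0.715 and a Pearson r of 0.638, given as a description, since regions share their libraries. Over the same pairs below 3100 in both lists (n = 60) rho was 0.637.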

How the data were processed

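The submitters' processing notes name BWA and the build ce10. The deposited lists give WormBase WS220 coordinates, per the file headers, and name MACS (replicate lists) or MACS v2 (series-wide list) in their source column. Each deposited region has a score of the authors' caller, on an unstated scale. The caller's settings, its control libraries and the making of the series-wide list are not stated in these sources.

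Regions on III were taken by chromosome. Overlap meant 1 bp or more, clusters had gaps of at most 10 kb, and positions went by midpoint. Densities were compared by two-sided exact binomial tests, shares by Newcombe 95% intervals. Medians have order-statistic intervals. A RefSeq table (WBcel235) gave only gene numbers per chromosome. The functions were tested on simulated data (Python 3.11.15, SciPy 1.17.1, pandas 2.3.3). Named regions are the 15 highest-scoring, the 5 widest, the 5 clusters with most peaks (ties by summed score), replicate regions at 3100 or above, the 5 highest missing from replicate 2 and from both replicates, and the 3 fullest and emptiest bins. Others named in the text were chosen after their values were seen. Members, lists and tests were chosen with earlier results of these data known.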

Additional observations from a re-analysis of the deposited data

How the results depend on the processing

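Of 90 recomputed values for the results on III, 55 were classed as unchanged. For tested results this meant the same side of the threshold, and the sign could change where neither value passed it. Such sign changes occurred for the difference in central share and for support in both replicates. For untested results it meant a move smaller than the replicate spread or, for the median score, than the margin of its interval on III. The density ratio of III to the other autosomes, 1.42, was 1.11 to 1.14 with either replicate list alone, 1.14 over peaks found in both replicates and 1.14 with merging within 10 kb, none past the threshold. Replicate 1 without the largest cluster gave 0.958, also not past it. Without clusters of 10 or more on any chromosome the ratio was 1.14, past the threshold (exact binomial p = 0.0458). The ratio of covered shares, 1.32, was 1.02 to 1.03 with one replicate list, 1.05 over peaks in both, 1.17 above the median score, 1.06 without clusters of 10 or more, 1.11 without the largest cluster and 0.867 for replicate 1 without it. The central share, 40.0%, was 32.0 to 42.2% with one replicate list, 35.4% over peaks in both, 35.7% above the median score, 33.2% and 34.2% with merging within 1 and 10 kb, 29.3% without clusters of 10 or more, 30.5% without the largest, and 31.3% for replicate 1 without it. Its difference from the other autosomes ran from -3.21 to 12.1 points over the replicate lists, and passed the threshold in replicate 1 alone. The difference in clustered share, 17.5 points, ran from -13.7 to 10.2 over the replicate lists, and was -19.1 over peaks in both, -8.62 above the median score and -2.3 for replicate 1 without the largest cluster. The difference in median width, -0.5 bp, ran from -40 to -11 bp over the replicate lists, and was -50 bp over peaks in both and 37 bp with merging within 10 kb. That in median score, -0.785, was 2.47 to 10.6 in the replicate lists on their own scale, 8.01 over peaks in both, 0 above the median score, 0.27 without clusters of 10 or more and 15.6 for replicate 1 without the largest cluster. Spearman rho of the replicate scores, 0.715, was 0.637 below 3100. Apart from what the dropped or merged regions themselves show, the cause of these shifts was not tested. Support in both replicates had an interval including 0 in every setting run. Settings that leave out clusters were chosen after seeing the data. No paired analysis was possible because the input libraries have no region list here and the ChIP libraries form 1 group. Read depth is unknown, so a region missing from a list is not shown to be unbound.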

Other observations

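The last 1 Mb of chromosome III held 44 series-wide peaks, against 11 to 32 in the last 1 Mb of the other autosomes and 63 on X. Of the 44, 16 belong to the single cluster III:13062957-13084515, where 14 peaks overlapped neither replicate, and those outside it are within the range of the other autosomes. In replicate 1 the last 1 Mb of III held 23 regions, within the range of the other autosomes (11 to 29), and in replicate 2 it held 6 (0 to 8 on the other autosomes). The first 1 Mb of III held 25 series-wide peaks, against 12 to 20 on the other autosomes and 54 on X. These end counts were chosen after the positions had been seen and were not tested. The last series-wide cluster, III:13775605-13783731, held 6 peaks in 8.13 kb at the end of the span, of which 4 overlapped replicate 1, none replicate 2 and 2 neither. Its highest score was 8.13 in the series-wide list and 336.89 in replicate 1.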
